A study of Homo sapiens with 19 samples.

Results

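The regions described here are the ERRα sites that were called in SKBr3 cells under all 3 treatments and were called in BT-474 cells under none of them. SKBr3 and BT-474 are HER2-amplified human breast cancer cell lines, and only BT-474 also expresses the oestrogen receptor. Both lines were serum-starved for 24 h and then exposed for 90 min to vehicle, to EGF or to heregulin (HRG), each growth factor at a labelled dose of 100 μM, before chromatin immunoprecipitation of ERRα and sequencing (ChIP-seq). Each of the 3 SKBr3 lists rests on 2 pooled ChIP libraries and an input library. Each of the 3 BT-474 lists rests on 1 ChIP library, and the input of vehicle-treated BT-474 cells was shared by all of them. A further list was deposited for parental SKBr3 cells kept without treatment (pSKBr3) and another for a lapatinib-resistant derivative kept in 2 μM lapatinib, an inhibitor of EGFR and HER2 (LRSKBr3), each from 2 pooled ChIP libraries and an input. Overlapping peaks of the 6 treatment lists (1 bp or more, chains of peaks included) were joined into 82896 regions. Of these, 4465 held a peak in all 3 SKBr3 lists and in no BT-474 list, which is 5.39% of all merged regions. The members were thus chosen by the peak calls themselves, so their SKBr3 scores and their lack of BT-474 peaks are given as a description only.

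ERRα is an orphan nuclear receptor that binds DNA without a steroid ligand, at an extended half-site called the ERRα response element (ERRE). It works with coactivators of the PGC-1 family and is best known as a regulator of genes of mitochondrial respiration and lipid oxidation. In HER2-positive cells EGF signals through EGFR and HER2 and HRG through HER3 and HER2, and both routes activate AP-1, the dimers of JUN and FOS proteins.

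The word searched as the ERRE was TCAAGGTCA, and the words searched as AP-1 sites were TGACTCA and TGAGTCA, on both strands and within 100 bp of the centre of the SKBr3 vehicle peak. The 6 members below rank highest among those with an ERRE by their mean score percentile over the 3 SKBr3 lists, and they are shown because the ERRE is the element through which ERRα contacts DNA. Capitals mark the word, and the GRCh37 (hg19) interval and strand follow in the next sentences.
KNOP1: gtagtgttgcTCAAGGTCAggagggattt
TSPAN9: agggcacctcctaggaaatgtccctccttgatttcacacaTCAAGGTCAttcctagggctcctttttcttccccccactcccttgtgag
DCLK1: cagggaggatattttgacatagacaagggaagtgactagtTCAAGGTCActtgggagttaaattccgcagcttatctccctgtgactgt
KCNAB2: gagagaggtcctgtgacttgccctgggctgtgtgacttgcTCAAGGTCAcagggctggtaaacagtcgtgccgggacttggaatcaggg
BCL2L10: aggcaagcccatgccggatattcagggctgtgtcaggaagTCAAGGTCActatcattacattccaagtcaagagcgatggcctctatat
CLEC14A: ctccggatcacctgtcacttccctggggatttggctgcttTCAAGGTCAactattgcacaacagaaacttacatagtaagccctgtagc
The KNOP1 sequence is chr16:19715961-19715989 on the plus strand, in an exon of KNOP1, which encodes a nucleolar protein. The TSPAN9 sequence is chr12:3254196-3254284 on the plus strand, in an intron of this tetraspanin gene. The other 4 lie between genes and are named after the nearest protein-coding start, namely chr13:36298119-36298207 (plus) for the kinase gene DCLK1, chr1:5475237-5475325 (minus) for the potassium channel subunit gene KCNAB2, chr15:52385912-52386000 (plus) for the BCL2 family gene BCL2L10, and chr14:39012829-39012917 (plus) for the lectin gene CLEC14A. The start of KCNAB2 is 575727 bp away and that of CLEC14A 287599 bp, so these names give only the position.

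The 3 members that rank highest among those with an AP-1 word are shown next, because AP-1 acts downstream of both growth factors. Capitals mark the AP-1 word.
DHX37: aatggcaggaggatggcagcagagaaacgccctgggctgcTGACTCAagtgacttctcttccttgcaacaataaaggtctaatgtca
S100A4: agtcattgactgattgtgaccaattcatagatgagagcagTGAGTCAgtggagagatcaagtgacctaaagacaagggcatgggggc
FAM107B: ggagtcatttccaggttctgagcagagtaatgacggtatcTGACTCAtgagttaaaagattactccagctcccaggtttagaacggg
All 3 are on the plus strand of GRCh37. The DHX37 sequence, chr12:125437592-125437678, is in an intron of this RNA helicase gene. The S100A4 sequence, chr1:153526344-153526430, lies between genes, 3727 bp from a start of S100A4, which encodes a calcium-binding protein. The FAM107B sequence, chr10:14575086-14575172, is in an intron, 334 bp from a start of that gene.

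Regions in all 3 SKBr3 lists numbered 16003, and the members make up 27.9% of them. A further 1798 (11.2%) had a peak in 1 BT-474 list, 1856 (11.6%) in 2, and 7884 (49.3%) in all 3 and so in all 6 lists. In the opposite direction, 6517 regions were in all 3 BT-474 lists and in no SKBr3 list. SKBr3 cells also held 27723 regions called on 1 or 2 treatments and not in BT-474.

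**Figure D1:**
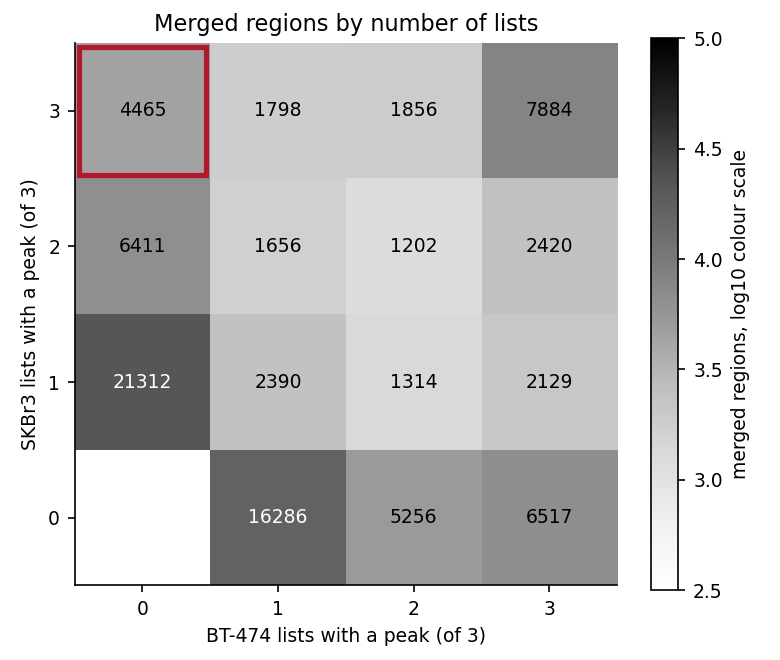
Number of merged regions by the number of SKBr3 lists (vertical axis) and of BT-474 lists (horizontal axis) with a peak, with grey on a log10 scale. The outlined cell holds the 4465 members, and the cell to the far right of the same row the 7884 regions in all 6 lists.

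Each peak carries the authors' MACS score, which is the negative log10 of the peak's P value multiplied by 10, so the P cutoff of 1e-05 corresponds to a score of 50. The score of a merged region in a list is that of its strongest peak in that list. In a wide region the scores of different lists may therefore belong to different peaks. The lists held between 22539 (pSKBr3) and 41271 (BT-474 HRG) peaks, and the lowest scores lay at the cutoff. BT-474 peaks were wider than SKBr3 peaks, with medians of 1817 to 2012 bp against 1396 to 1405 bp. Since the lists pool their ChIP libraries and hold no tag counts, the depth of the libraries is unknown and no treatment or cell line difference can be tested. A region without a BT-474 peak is one where none was called at this cutoff, and signal below the cutoff cannot be seen. Copy number, which may differ between the lines and is not recorded in the lists, cannot be told apart from the cell line. The same holds for the number of ChIP libraries behind a list. Intervals are 95% Wilson intervals over regions, which are not replicates, and cover counting error only.

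The members were of middling strength in SKBr3 cells. Their median score percentile, which ranks a peak within its own list, was 55.6 on vehicle, 58.7 on EGF and 65.7 on HRG, against 82.4, 80.9 and 80.0 for the regions in all 6 lists. On vehicle 1047 members (23.4%) stood above percentile 75, on EGF 1209 (27.1%) and on HRG 1612 (36.1%), and 542 (12.1%) did so in all 3 lists. At the weak end, 640 members (14.3%) had a lowest SKBr3 score under 60, next to the cutoff, while 2403 (53.8%) scored 100 or more in every SKBr3 list. The merged regions had a median width of 1634 bp and ranged from 417 to 16304 bp.

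Called under all treatments did not mean ranked alike under all treatments. Across the members, Spearman's rank correlation between the scores on vehicle and on EGF was 0.50, between vehicle and HRG 0.37, and between EGF and HRG 0.56. In the regions in all 6 lists the same values were 0.77, 0.68 and 0.78. These are correlations across regions of pooled lists whose depths are unknown, and the cause of the difference was not tested. The percentile on HRG was above that on vehicle in 2752 members (61.6%), with a median difference of 6.74 percentile points, and that on EGF above vehicle in 2279 (51.0%), with a median of 0.489 points. In the regions in all 6 lists 40.7% were higher on HRG and 39.5% on EGF than on vehicle, with medians of −1.15 and −1.06 points. Both differences went with base composition, in opposite directions. In the 1501 members with a GC content of 55% or more in the central 200 bp, the median difference between HRG and vehicle was 15.4 points and 78.8% were higher on HRG, whereas in the 1086 members under 45% GC it was −2.84 points and 45.9% were higher. The regions in all 6 lists showed the same order, with 60.9% higher on HRG at 55% GC or more and 29.7% under 45%. The difference between EGF and vehicle ran the other way in the members, with a median of −1.82 points and 46.1% higher on EGF at 55% GC or more, and 2.66 points and 55.8% under 45%. It did so in the regions in all 6 lists too, with 31.2% higher on EGF at 55% GC or more and 43.4% under 45%. Whether the libraries differed in their GC response was not tested.

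**Figure D2:**
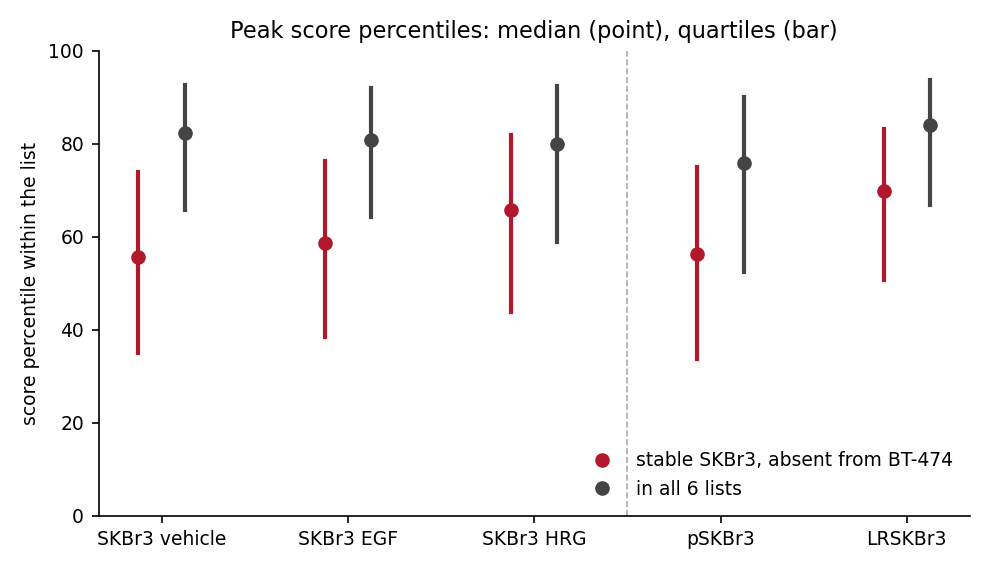
Score percentile within each list (vertical axis) for the members and for the regions in all 6 lists; points are medians and bars span the quartiles over regions with a peak in that list. The SKBr3 lists left of the dashed line were used to choose the members, which sit lower than the regions in all 6 lists throughout, with medians of 55.6 to 65.7 in the SKBr3 lists and 56.2 and 69.9 in the pSKBr3 and LRSKBr3 lists.

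The strongest members reached the scores at which the lists level off. SPNS2, the gene of a sphingosine-1-phosphate transporter, held the member of rank 1 in an intron (chr17:4404311-4409278), with a score of 3006 on vehicle, 3163 on EGF and 3100 on HRG, and with 1953 in pSKBr3 and 3097 in LRSKBr3 cells. Its nearest BT-474 peak was 6953 bp away. An intron of FGFR2, the gene of a fibroblast growth factor receptor, held another (chr10:123254691-123257475) at 3100 in each of the 5 SKBr3-derived lists, 80489 bp from any BT-474 peak. A region 59854 bp from the start of the cadherin gene CDH4 (chr20:59765852-59768933) was also at 3100 on all 3 treatments, and the nearest BT-474 peak was 877269 bp away. The KNOP1 region (chr16:19714781-19717062) shown above with its ERRE scored 3100 on all 3 treatments, and there a BT-474 peak lay 1538 bp away. The TSPAN9 region (chr12:3253164-3255251) was likewise at 3100, with 2759 in pSKBr3 and 3100 in LRSKBr3 cells. Thus the first members included sites far from any BT-474 peak as well as sites beside one. The others among the first 10 were near the transcription factor gene BHLHE23 (chr20:61691287-61699382), in RHOBTB3 and the overlapping glutaredoxin gene GLRX (chr5:95138610-95141761), at SFXN4 (chr10:120923941-120925922), and in the nucleoporin gene NUP210 (chr3:13387306-13389267), all at 3100 on the 3 treatments, and 1 of the 10 is not described here.

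At promoters, meaning a peak centre within 1 kb of the start of a protein-coding gene, the first member was that of SFXN4, a mitochondrial sideroflexin that takes part in the assembly of complex I. It was centred 117 bp from the start and scored 3100 in all 5 SKBr3-derived lists. ETV4, an ETS factor downstream of growth factor signalling (chr17:41606550-41609381), scored 2456 on vehicle, 2712 on EGF and 3100 on HRG, and 467.6 in pSKBr3 and 765.1 in LRSKBr3 cells. AGPAT3, an acyltransferase of phospholipid synthesis (chr21:45321940-45324761), scored 2957, 1959 and 3100. TRPM4, the gene of a calcium-activated cation channel (chr19:49712254-49714429), scored 1496, 3067 and 3100. These scores come from libraries of unknown depth, so their order within a gene cannot be read as a change in binding.

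Among the other members with the sequences shown above, DCLK1 scored 3100 on vehicle, 2280 on EGF and 1836 on HRG, and KCNAB2 2398, 1954 and 1564, with percentiles of 94.8 or more for DCLK1 and 93.7 or more for KCNAB2 in their own lists. BCL2L10 had 1319, 2335 and 1751, and CLEC14A 1329, 1755 and 1697. In pSKBr3 and LRSKBr3 cells CLEC14A had 102.9 and 168.6 (percentiles 39 and 52.6) and BCL2L10 303.1 and 1751 (73.3 and 94.7). Of the AP-1 members, FAM107B scored 609.4 on vehicle and 3100 on each growth factor, with 116.7 in pSKBr3 and 486.6 in LRSKBr3 cells. DHX37 had 1668 on vehicle, 2961 on EGF and 2766 on HRG, and S100A4 2097, 2901 and 2084. BNC2, the gene of a zinc-finger protein (chr9:16335239-16336770), scored 850.8, 2114 and 2041, and SNN, the gene of stannin (chr16:11766643-11772918), 1004, 1206 and 2906. By percentile within the list, FAM107B stood at 84.4 on vehicle and 98.6 on each growth factor and BNC2 at 88.5, 95.6 and 95.4, whereas S100A4 (95.8, 97.1 and 95.5) was ranked much the same throughout. These members were picked by the same scores, so nothing follows from their order about AP-1.

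At the other end, the members of lowest rank scored barely above the cutoff. An intron of CHRNA2, a nicotinic receptor subunit gene (chr8:27322893-27323936), scored 55.05, 56.31 and 51.97 on vehicle, EGF and HRG, was not called in pSKBr3 cells and scored 90.31 in LRSKBr3 cells. A region 58900 bp from the start of the atlastin gene ATL2 (chr2:38662622-38664094) scored 55.54, 53.66 and 50.81, and was called in neither pSKBr3 nor LRSKBr3 cells. Just outside the rule, a region in KAZN (chr1:15365932-15367399) scored 354.8, 232.8 and 212.5 in the SKBr3 lists but had a BT-474 vehicle peak with a score of 50, at the cutoff. Another, 34732 bp from the start of MCFD2 (chr2:47100120-47103170), scored 2445 on EGF and 3100 on HRG and had no vehicle peak. The member closest to a BT-474 peak, in an intron of TTC7A (chr2:47189038-47193769), was 4 bp from it. The 1798 regions that failed the rule by a peak in 1 BT-474 list had a median BT-474 score of 84.7.

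A BT-474 peak was often not far away. It lay within 1 kb of 218 members (4.88%), within 5 kb of 911 (20.4%), within 10 kb of 1586 (35.5%) and within 50 kb of 3505 (78.5%), and the median distance was 17627 bp. The regions called on 1 or 2 SKBr3 treatments and not in BT-474 had nearly the same median, 16920 bp, so this distance did not set the members apart.

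The pSKBr3 and LRSKBr3 lists were not used by the rule, though they come from cells of the SKBr3 line. Members held a pSKBr3 peak in 2890 cases, or 64.7% (63.3 to 66.1%), and an LRSKBr3 peak in 3975 cases, or 89.0% (88.1 to 89.9%). Of all merged regions, 23.1% held a pSKBr3 peak and 38.4% an LRSKBr3 peak. In the regions in all 6 lists the shares were 83.0% and 95.4%. In the BT-474 regions absent from SKBr3 they were 3.02% and 10.4%. Set against regions of like score, the members were called about as often as the regions in all 6 lists. In the lowest of 4 groups of SKBr3 vehicle score percentile, a pSKBr3 peak was present at 44.4% (40.8 to 48.0%) of members and 43.0% (37.9 to 48.3%) of regions in all 6 lists. In the highest group the shares were 88.3% (86.3 to 90.2%) and 95.4% (94.8 to 95.9%), and these intervals did not overlap. SKBr3 regions called on 1 or 2 treatments and not in BT-474 stood far lower, at 10.2% in the lowest group and 32.8% in the highest.

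**Figure D3:**
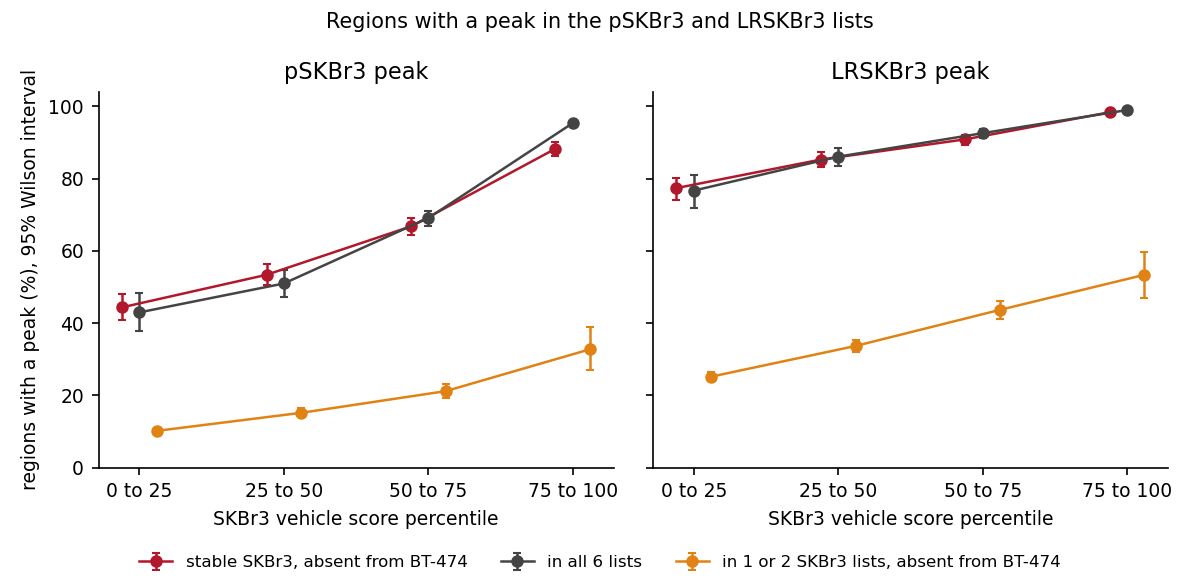
Share of regions with a pSKBr3 peak (left) and an LRSKBr3 peak (right) in 4 groups of SKBr3 vehicle score percentile, with 95% Wilson intervals, among regions with a vehicle peak. Members and regions in all 6 lists run together from 44.4% and 43.0% in the lowest group and part in the highest group on the left, at 88.3% and 95.4%, while regions in 1 or 2 SKBr3 lists stay below.

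By these lists the members fell into 4 sets, with 2799 (62.7%) in both, 1176 (26.3%) in LRSKBr3 alone, 91 (2.04%) in pSKBr3 alone and 399 (8.94%) in neither. The 3 larger sets differed in place and in sequence. Promoters made up 20.5% (19.1 to 22%) of the members in both lists, 6.55% (5.27 to 8.11%) of those in LRSKBr3 alone and 3.51% (2.10 to 5.80%) of those in neither. The AP-1 words ran the other way, at 5.82% (5.01 to 6.75%), 11.6% (9.94 to 13.6%) and 19.0% (15.5 to 23.2%). The ERRE was present in 7.47% (6.55 to 8.50%), 5.70% (4.51 to 7.17%) and 6.02% (4.08 to 8.79%), with overlapping intervals. The 91 members in pSKBr3 alone stood outside this order, with 1.10% (0.194 to 5.96%) at promoters and 8.79% (4.52 to 16.4%) for the AP-1 words and for the ERRE alike. The median vehicle score percentile fell along the same order, from 64.2 to 45.8 and 34.9, as did the mean GC content, at 53.4%, 47.8% and 46.0%. The part of score and of GC content in these differences was not tested. The pSKBr3 list was the shortest and the LRSKBr3 list one of the longest, with 39777 peaks, so depth and resistance cannot be told apart.

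Promoters held 666 members, or 14.9% (13.9 to 16.0%), against 14.7% (13.9 to 15.5%) of regions in all 6 lists, 2.62% (2.26 to 3.04%) of the BT-474 regions absent from SKBr3 and 8.89% of all merged regions. The pooled shares hid opposite differences by score, since promoters made up 17.1% (14.5 to 20%) of members and 9.3% (6.67 to 12.8%) of regions in all 6 lists in the lowest group of vehicle score, and 10.6% (8.88 to 12.6%) and 16.6% (15.6 to 17.7%) in the highest. Regions in all 3 SKBr3 lists with a peak in 1 or 2 BT-474 lists had 20.6% (18.8 to 22.6%) and 20.3% (18.5 to 22.2%) at promoters, above the members. Introns held 49.9% of member centres and intergenic sequence 41.5%. Exons held 8.60% (7.81 to 9.46%), against 6.20% (5.69 to 6.76%) in all 6 lists and 8.95% and 8.84% in those same regions with 1 or 2 BT-474 lists. More than 50 kb from any start lay 30.4% of members, 32.8% of regions in all 6 lists and 54.7% of the BT-474 regions. The central 200 bp of members had a mean GC content of 51.2% ± 8.98 (SD over 4465 regions), against 47.2% ± 9.29 in the regions in all 6 lists and 38.6% ± 7.25 in the BT-474 regions. The members' flanks, 2 kb to each side, had 46.8%, and those of the other classes 44.6% and 40.4%. Promoter members ranked lower on EGF than distal members, with a median percentile of 45.1 against 61.3, while on HRG the medians were 68.6 and 65.0 and on vehicle 52.5 and 56.4.

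The ERRE was present in the central window of 308 members, or 6.90% (6.19 to 7.68%), against 0.314% of their flanking windows. In the regions in all 6 lists it was present in 9.84% (9.20 to 10.5%), in the BT-474 regions in 4.94% (4.44 to 5.49%), and in all merged regions in 5.38%. The lower share in members than in regions in all 6 lists was seen in each of the 4 groups of vehicle score, at 7.85% against 12.2% in the lowest and 5.64% against 9.10% in the highest, and in each of 5 groups of GC content, at 8.81% against 11.5% under 40% GC and 4.33% against 5.74% at 55% GC or more. In the lowest group of score, and in each GC group except 45 to under 50%, the intervals of the 2 classes overlapped. The core AAGGTCA, which the ERRE contains, was present in 1334 members, or 29.9% (28.6 to 31.2%), and in 31.2% (30.2 to 32.2%) of regions in all 6 lists, so the classes were closer at the core than at the full word. The bases TC, which complete the ERRE, preceded 21.5% (19.5 to 23.7%) of the 1472 cores in members and 29.3% (27.6 to 31%) of the 2854 in regions in all 6 lists. The share was 21.1% (20 to 22.2%) in regions of 1 or 2 SKBr3 lists absent from BT-474 and 24.7% (22.5 to 27.1%) in the BT-474 regions, so the lower share was not particular to the members. CC preceded 25.2% of the cores in members and 26.1% in regions in all 6 lists.

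The AP-1 words were present in 384 members, or 8.60% (7.81 to 9.46%), with 3.31% in their flanks. The share was 8.08% (7.50 to 8.70%) in the regions in all 6 lists, 4.74% (4.25 to 5.28%) in the BT-474 regions (2.98% in their flanks) and 8.12% in all merged regions. It was above the members' share in the nearest classes, at 10.0% (9.67 to 10.4%) in regions of 1 or 2 SKBr3 lists absent from BT-474, and at 9.34% (8.08 to 10.8%) and 9.16% (7.93 to 10.6%) in regions of the 3 SKBr3 lists with 1 and 2 BT-474 lists, where the intervals overlapped that of the members. Weak members held AP-1 words more often than strong ones, with 12.9% (10.7 to 15.6%) in the lowest group of vehicle score and 6.11% (4.82 to 7.73%) in the highest, and the regions in all 6 lists ran likewise from 16.9% to 6.51%. The regions of 1 or 2 SKBr3 lists absent from BT-474 that were called on vehicle showed no such order, with 4.08% in the lowest group and 3.88% in the highest. They stood below the members in each of the 4 groups. The 10.0% of that class also covers regions without a vehicle peak, whose windows were centred on a growth factor peak. Both an ERRE and an AP-1 word were present in 15 members (0.336%), near the 0.355% of all merged regions. The ERRE was most frequent at the peak centre, with 4.08% of members in the 100 bp to its right and 0.224% from 900 to 1000 bp, and AP-1 fell over the same distance from 4.75% to 1.68%.

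**Figure D4:**
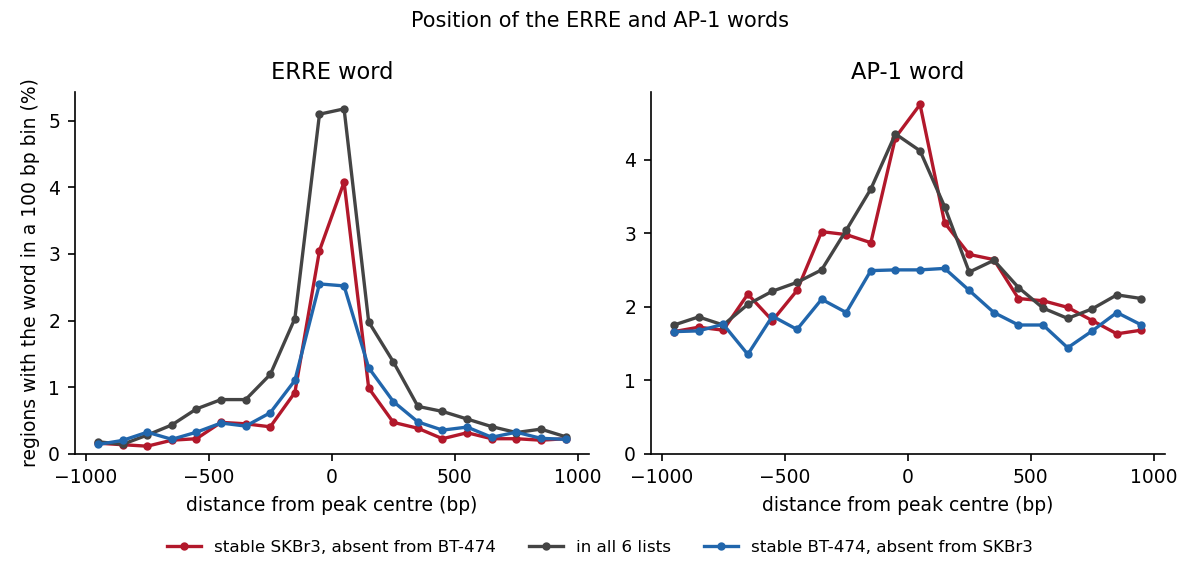
Share of regions with the ERRE word (left) and an AP-1 word (right) in bins of 100 bp by distance from the peak centre in bp. Both words peak at the centre of the members, at 4.08% and 4.75%, and the AP-1 line of the BT-474 regions absent from SKBr3 has a lower central rise, to 2.52%.

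Words for other factors were searched in the same windows. FOXA factors open chromatin in luminal breast cells, and their words (TGTTTAC or TATTTAC) were present in 268 members, or 6.0% (5.34 to 6.74%), which is close to the 5.54% (5.09 to 6.04%) of the members' flanks. In regions in all 6 lists the share was 9.82% with 5.90% in the flanks, and in the BT-474 regions 18.7% with 7.76%. The low FOXA share was not particular to the members, since it was 6.23% (5.2 to 7.44%) in regions in all 3 SKBr3 lists and 1 BT-474 list, 7.0% (5.93 to 8.26%) in those with 2, and 6.66% (6.37 to 6.96%) in regions in 1 or 2 SKBr3 lists and not in BT-474. The FOXA words are AT-rich, and within groups of GC content the members' share was 15.5% (12.3 to 19.2%) under 40% GC, against 17.2% (15.5 to 19.1%) in all 6 lists and 23.2% (21.9 to 24.5%) in the BT-474 regions. At 45 to under 50% GC it was 6.50% (5.08 to 8.30%) in members and 9.63% (8.31 to 11.1%) in regions in all 6 lists. GATA words (AGATAAG or TGATAAG), for factors of which GATA3 marks luminal cells, were present in 3.18% (2.70 to 3.74%) of members, 4.2% of their flanks and 9.38% (8.69 to 10.1%) of BT-474 regions. The other SKBr3 classes were also low in GATA words, with 4.4% in all 6 lists, 3.95% and 3.50% with 1 or 2 BT-474 lists, and 3.85% in 1 or 2 SKBr3 lists. The GATA words are AT-rich too, and the part of GC content in these shares was not tested. TEAD words (GGAATGT or GGAATGC), for the partners of YAP and TAZ, were present in 436 members, or 9.76% (8.93 to 10.7%), and in 5.08% of their flanks, against 7.62% (7.06 to 8.23%) in regions in all 6 lists. By vehicle score the TEAD shares were 8.54% (6.72 to 10.8%) and 10.5% (7.66 to 14.1%) in the lowest group and 11.3% (9.49 to 13.3%) and 7.31% (6.62 to 8.07%) in the highest, so the members' share was not the larger one at low score. The ETS word (CCGGAAGT), common at housekeeping promoters, was present in 65 members, or 1.46% (1.14 to 1.85%), and 0.545% (0.405 to 0.734%) of regions in all 6 lists. Regions in all 3 SKBr3 lists and 1 or 2 BT-474 lists had TEAD words in 8.84% (7.62 to 10.2%) and 7.22% (6.13 to 8.49%) and the ETS word in 1.11% (0.721 to 1.71%) and 1.4% (0.958 to 2.04%), so for ETS, and for TEAD with 1 BT-474 list, their intervals overlapped those of the members. Among promoters alone the ETS shares of members and regions in all 6 lists were 7.21% (5.48 to 9.43%) and 2.84% (2.03 to 3.97%).

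The oestrogen response element, searched as GGTCA and TGACC separated by 3 bases, was present in 5 members (0.112%), against 0.228% of regions in all 6 lists and 0.460% of BT-474 regions. The AP-2 words were present in 3.43% (2.93 to 4.0%) of members and 2.5% (2.18 to 2.87%) of regions in all 6 lists, and the CTCF word, searched as CCA, 2 bases, AG, 2 bases and GGC, in 2.17% (1.78 to 2.64%) and 1.28% (1.06 to 1.55%). With 1 or 2 BT-474 lists the shares were 2.95% (2.26 to 3.84%) and 2.53% (1.91 to 3.35%) for AP-2 and 1.72% (1.22 to 2.44%) and 1.51% (1.05 to 2.17%) for CTCF, with intervals overlapping those of the members. AP-2 factors are abundant in HER2-amplified breast cells, and CTCF is an insulator protein. The RUNX word (TGTGGTT) was no more frequent than in the flanks, with 3.49% against 3.65%, and the GRHL words were present in 1.01% and the NRF1 word in 0.269%. Across all merged regions FOXA words were present in 10.9%, GATA in 5.54%, TEAD in 7.35%, AP-2 in 1.95%, CTCF in 1.10%, RUNX in 4.07%, GRHL in 1.11%, NRF1 in 0.113%, ETS in 0.448%, the oestrogen response element in 0.146% and the core AAGGTCA in 19.9%. A word in a window is a description and not a site shown to be occupied by the factor it is named after.

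**Figure D5:**
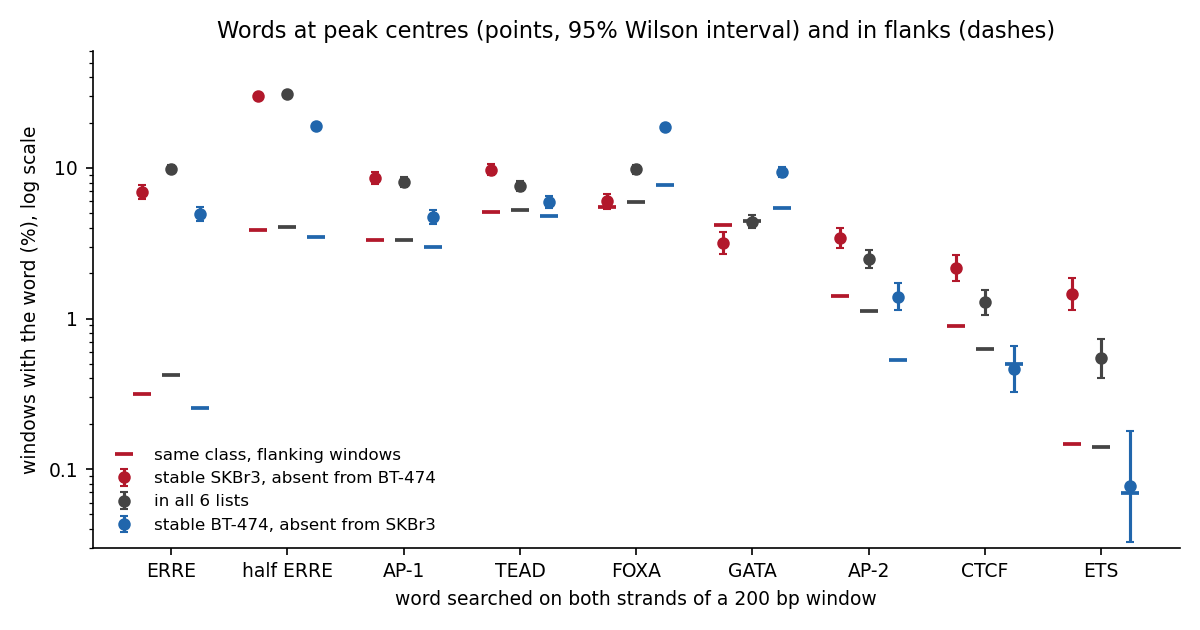
Share of 200 bp windows with each word on a log axis, for members, regions in all 6 lists and BT-474 regions absent from SKBr3; points with 95% Wilson intervals are peak centres, dashes of the same colour are flanking windows. FOXA and GATA points of the members lie close to or below their own flanks (6.0% against 5.54% and 3.18% against 4.2%), while the ERRE point lies far above (6.90% against 0.314%).

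By chromosome, the members' share of the regions in all 3 SKBr3 lists ran from 17.7% (13.3 to 23.1%) on chromosome 18, with 41 of 232, to 35.6% (29.9 to 41.7%) on chromosome 21, with 89 of 250. Chromosomes 22 (35.3%), 10 (34.7%), 9 (33.9%) and 17 (33.5%) stood near the top, and 7 (20.5%) and 12 (21.9%) near the bottom. In windows of 1 Mb, 1642 held a member, 686 of them a single member, and 40 held 10 or more, with 470 members between them. The fullest window, chr10:126000001-127000000, held 19 members, of which 11 were nearest to CTBP2, the gene of a transcriptional corepressor, and BT-474 cells had 7, 5 and 9 peaks there on vehicle, EGF and HRG. The neighbouring window, chr10:125000001-126000000, held 15 members, mostly near the orphan receptor gene GPR26 and the sulfotransferase gene CHST15, with 2, 2 and 4 BT-474 peaks and no region in all 6 lists. For comparison, the median window with a member held 12 BT-474 vehicle peaks and 15 HRG peaks, with lower quartiles of 7 and 9, which the fullest window equals. Both windows were picked for regions that lack BT-474 peaks. The window chr9:101000001-102000000 held 16 members, 10 of them nearest to GABBR2, a subunit gene of the GABA-B receptor. Only 4 of these 16 had a pSKBr3 peak and 11 an LRSKBr3 peak. The window chr10:80000001-81000000 held 15 members, 10 nearest to ZMIZ1, a transcriptional coregulator gene, beside 27 BT-474 vehicle peaks and 11 regions in all 6 lists, so there the members were interspersed with shared sites. In chr17:75000001-76000000, 10 of 14 members were nearest to SEPTIN9, a cytoskeletal septin gene, and chr3:53000001-54000000 also held 14, of which 4 were nearest to the calcium channel gene CACNA1D. The files hold no copy number, and its part in these windows was not tested.

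A start of 2786 of 19794 protein-coding genes (14.1%) lay within 20 kb of a member's centre, and 1132 of these genes (5.72% of all) had no BT-474 peak centre in that range. Regions in all 6 lists lay in range of 21.2% of genes. The shares of the gene lists described next are to be read against the 14.1%.

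Of 76 genes of oxidative phosphorylation, 14 (18.4%) had a member in range and 53 (69.7%) a region in all 6 lists, so these classical ERRα targets were mostly near shared sites. Of the 14, 7 had no BT-474 peak in range, which is 9.21% of the list against 5.72% of all genes. The NDUFAB1 member (chr16:23606084-23609118) was centred 69 bp from a start and scored 592.6 on vehicle, 394.0 on EGF, 847.5 on HRG and 2898 in pSKBr3 cells. The members in range of ATP5ME (chr4:680333-682278) and of ATP5F1D (chr19:1247421-1249540), both subunits of the ATP synthase, held an ERRE. The first scored 823.7, 1546 and 2699, and the second 883.4, 767.5 and 2163. Of 28 genes of the TCA cycle and pyruvate entry, 4 (14.3%) had a member and 21 (75%) a region in all 6 lists. DLST, a subunit of the 2-oxoglutarate dehydrogenase complex, had its member 17 bp from the start (chr14:75347527-75349491), with scores of 380.4, 386.7 and 1190, and PC, the pyruvate carboxylase gene, had one in an intron (chr11:66623017-66624606), with 123.2, 198.1 and 701.6. IDH3G and SUCLG2 were the other two.

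The lipid lists had the largest shares of genes with a member. They also lay near regions in all 6 lists more often than the background, at 32.1% for fatty acid oxidation and 31.2% for fatty acid and sterol synthesis against 21.2% of all protein-coding genes. Of 28 genes of fatty acid oxidation, 7 (25%) had a member in range, among them ACOX2, ECI1, SLC25A20 and ECHS1, and only ECHS1 had no BT-474 peak in range, which is 3.57% of the list against 5.72% of all genes. The member at ECI1, an enoyl-CoA isomerase of mitochondria (chr16:2300201-2302381), was centred 93 bp from the start and scored 256.1, 235.0 and 705.6. That of ACOX2, a peroxisomal oxidase (chr3:58517288-58519117), scored 244.3, 423.3 and 698.1. Of 32 genes of fatty acid and sterol synthesis, 8 (25%) had a member, 3 of which (ACLY, FADS3 and HMGCS1, 9.38% of the list) had no BT-474 peak in range. ACSL5, an acyl-CoA synthetase gene, held the strongest (chr10:114138943-114140538), with 996.4, 2574 and 1543. The member in range of ACLY, the ATP citrate lyase gene (chr17:40090024-40103368), scored 114.7, 336.4 and 332.5, and 2444 in LRSKBr3 cells. This merged region spans 13345 bp, so these scores may come from different peaks within it. With lists of this length a few genes decide the share.

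The lists of luminal, hormone-responsive and junction genes had shares from 10.0% to 15.6% for members, near the background. More of these genes lay near shared sites, as 34.4% to 46.7% of each list had a region in all 6 lists in range, against 21.2% of all genes. Their shares for the BT-474 regions absent from SKBr3 lay between these. Of 36 luminal transcription factor genes, 4 (11.1%) had a member, namely ELF5, OVOL1, SPDEF and TFAP2A, and 7 (19.4%) a BT-474 region absent from SKBr3, against 8.49% of all genes. Of 30 apocrine and androgen-responsive genes, 3 (10.0%) had a member (DHRS2, SPDEF and TMPRSS2) and 9 (30%) a BT-474 region. The SPDEF member (chr6:34517280-34524881), in an intron of this ETS factor gene, scored 52.09 on vehicle, 87.53 on EGF and 1014 on HRG, which are percentiles 2.34, 28.6 and 89.9 of their lists. This merged region spans 7602 bp, so these scores may come from different peaks within it. Of 32 oestrogen-responsive genes, 5 (15.6%) had a member and 8 (25%) a BT-474 region. CTSD, the cathepsin D gene (chr11:1775451-1780046), had the strongest, with 2075, 2499 and 3100, and 3100 in both pSKBr3 and LRSKBr3 cells. CELSR2, a cadherin-related receptor gene (chr1:109781762-109784125), scored 173.4, 353.9 and 858.2, and was the only gene of the 5 with no BT-474 peak in range. Of 38 keratin and junction genes, 4 (10.5%) had a member, with MUC1 (chr1:155148027-155152675) the strongest at 158.0, 360.5 and 1918.

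Of 37 basal and mesenchymal genes, 5 (13.5%) had a member, namely CD44, EGFR, ITGA6, ITGB4 and MYLK. The EGFR member, in an intron of the gene of the EGF receptor (chr7:55093508-55096415), scored 151.9 on vehicle, 163.6 on EGF and 102.2 on HRG, was not called in pSKBr3 cells and scored 203.8 in LRSKBr3 cells. The CD44 member (chr11:35187843-35190074), in an intron of the hyaluronan receptor gene, scored 99.72, 336.6 and 86.00, which are percentiles 37, 72.6 and 29.1. Of 35 feedback inhibitors of growth factor signalling, 5 (14.3%) had a member, and of 34 AP-1 and immediate early genes, 4 (11.8%). At DUSP1, a MAP kinase phosphatase gene, the member was centred 59 bp from the start (chr5:172197282-172199596) and scored 64.93, 182.2 and 224.8. DUSP5, of the same family (chr10:112268109-112269415), had 296.0, 417.8 and 239.6. MAFF, a small MAF factor gene, had the strongest of the immediate early list (chr22:38613995-38615688), with 573.2, 537.0 and 1011. KLF2, a Krüppel-like factor gene (chr19:16449078-16450542), had 208.4, 1022 and 841.1 and no BT-474 peak within 20 kb of a start. ATF3, a member of the AP-1 superfamily (chr1:212773062-212775821), had 203.6, 579.5 and 90.34. Neither share stood apart from the 14.1% of all genes.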

How the data were processed

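ChIP-seq of ERRα comprised 13 ChIP and 6 input libraries. Per the labels and the study's methods, the authors aligned reads to hg19 with BWA (0.5.9), used SAMtools (0.1.18) and called peaks with MACS against input at P 1e-05. The deposited value of each peak is the MACS score of the authors, and scores of different lists are not on a common scale, so values printed side by side are a description. The libraries' depth is unknown. From the lists, peaks were merged by 1 bp overlap, and each region was annotated with 19794 protein-coding genes (GENCODE v44 lifted to GRCh37). Words were searched within 100 bp of the centre of the region's strongest SKBr3 vehicle peak. Where a region had no vehicle peak, the SKBr3 EGF peak was used, and failing that the HRG peak. Regions without an SKBr3 peak were centred on the BT-474 vehicle, EGF or HRG peak, in that order. The AP-2 words were GCCTCAGGC, GCCTGAGGC, GCCCCAGGC, GCCTGGGGC, GCCCGGGGC, GCCCCGGGC, GCCCGAGGC and GCCTCGGGC, the GRHL words AACCGGTT, AACCTGTT and AACAGGTT and the NRF1 word GCGCATGCG.

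The members and gene lists were chosen with earlier results of these data known. Named were the first 10 members, 5 at promoters (1 of which is not reported here), 6 with the ERRE, 5 with AP-1 words and the last 2, by mean score percentile, with ties ordered by the summed scores, then by width. Also named were 2 regions just outside the rule, the 5 fullest windows (with 1 tied with the last) and up to 4 genes per list with values. Further genes named where a count was small were chosen after their values were seen. Groups of GC content and the split into promoters and distal regions were added after the first shares were seen. With 1 list per condition no test was made. Merging, the choice of members, the overlap lookup and the search for the ERRE word were tested on simulated data. The annotation with genes and the search for the other words were not. Python 3.11.15, numpy 2.4.6, pandas 2.3.3, scipy 1.17.1, pysam 0.24.0 and matplotlib 3.10.9 were used.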

Additional observations from a re-analysis of the deposited data

How the results depend on the processing

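Of 74 values recomputed under 15 alternatives, 53 moved by less than their interval or, for counts, by less than 1.5 times. Among the 15 alternatives, 1 removed no member and left all 4465. Its values could not move, and they count among the 53. With a P cutoff of 1e-10 in the SKBr3 lists alone, 2403 regions met the rule, with a pSKBr3 peak at 76.4%, an LRSKBr3 peak at 94.1%, 13.5% at promoters, a mean GC content of 51.5% and 1597 genes in range. With that cutoff in every list, the pSKBr3 share was 61.1%. Counting a BT-474 peak within 10 kb as present left 2879 members, with 66.4% in pSKBr3 and 16.6% at promoters. With lists of equal length the pSKBr3 share was 71.2% and the LRSKBr3 share 92.0%. Requiring P of at most 1e-10 of the pSKBr3 and LRSKBr3 peaks gave 45.7% and 78.3%. Without the dense 1 Mb windows the GC content was 50.9%. A window of 250 bp to each side gave an ERRE in 9.27%, AP-1 words in 16.3% and a GC content of 50.8%, the HRG peak centre gave an ERRE in 5.60%, the core AAGGTCA was in 29.9%, and 27.3% of members lay within 5 kb of a start. The wider windows, shorter word and longer distance raise these shares by construction. For the other changes the cause was not tested.

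No paired analysis was possible because the lists pool the ChIP libraries that share replicate numbers, and leaving out a replicate was not possible for the same reason. The missing tag counts limit what can be said of weak sites, and a share of peaks depends on the depth of both lists.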
